A study of Mus musculus with 11 samples.

Results

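Lowering Arid1a in unstimulated 266-6 cells was measured in 5 of the 11 libraries of the series: 3 from cells given Arid1a siRNAs and 2 from cells given a control siRNA, chosen by their labels. 266-6 is an established mouse pancreatic acinar cell line, and the labels name 1 such line and no animals. Both groups were transfected for 48 hours, with Arid1a siRNAs at 25 nM or with a non-targeting siRNA called NT5. The cells of all 5 libraries were kept overnight without serum and then received the vehicle, 0.1% BSA, for 8 hours. The other 6 libraries came from cells that received EGF at 40 ng/ml in place of the vehicle, 3 with each siRNA. The Arid1a siRNAs and the non-targeting siRNA came from different suppliers, so the target and the reagent cannot be told apart. The label calls the control genotype Arid1a-wildtype and the other Arid1a-knockdown, which here is a transient lowering and not a deletion. The labels do not say whether replicates were separate cultures, so each p-value rests on scatter among libraries that could be technical in origin.

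ARID1A is the DNA-binding subunit that defines the canonical BAF form of the SWI/SNF complex, a machine that uses ATP to slide and evict nucleosomes and so keeps enhancers and promoters open. ARID1B is its paralogue and can take its place in the complex, SMARCA4 and SMARCA2 are the alternative ATPases, and PBAF is a sister complex built on ARID2 and PBRM1. Acinar cells make digestive enzymes under a set of transcription factors led by PTF1A and its partner RBPJL. In the mouse pancreas, loss of Arid1a is known to weaken acinar identity and to favour duct-like metaplasia.

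Levels are given in CPM, the reads of a gene divided by the reads of its library, adjusted for library composition and set to a common library size, and they are not corrected for gene length. The 5 libraries held 10279763 to 19773007 counted reads. Of 23284 gene symbols, 13343 had enough reads to be tested. A gene was called when its edgeR quasi-likelihood p, adjusted by Benjamini-Hochberg over all 13343 genes, was under 0.05 (two-sided), and "rose" and "fell" are used below only of called genes. Values are listed as control replicates 1 and 2, then Arid1a siRNA replicates 1, 2 and 3. Among the Arid1a siRNA libraries, replicate 3 differed more from replicates 1 and 2 than these did from each other. The chi-square per degree of freedom was 6.576 and 9.036 for the pairs with replicate 3, 2.249 for replicates 1 and 2, and 10.88 for the 2 control libraries.

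The acinar label was checked against the products of these cells. Ctrb1, which encodes chymotrypsinogen B, was at 14335, 12408, 11699, 11651 and 13858 CPM, and the 38 acinar products in the tables summed to 17194 to 19508 CPM in the control libraries and 17456 to 20891 CPM after the Arid1a siRNAs. The pancreatic amylase Amy2a5 was listed at 0 reads in all 5 libraries, and Cpb1, Ctrc and Gp2 were too low to test. Amylase copies are nearly identical, so reads that fit several copies may have been dropped by the authors' counting. Of 18 islet markers, Ins1, Ins2, Sst, Iapp and Slc30a8 had 0 reads, and the summed level was 757.7 to 811.6 CPM in the controls and 695.1 to 837.5 CPM after the siRNAs, most of it Chga. Of 20 immune and endothelial markers, Cd3e, H2-Aa and Cdh5 were among those with 0 reads, and the sums were 51.1 to 52.2 CPM and 49.5 to 59.2 CPM. The 18 fibroblast markers summed to 597.6 to 619.0 CPM in the controls and 764.5 to 775.9 CPM after the siRNAs. Vim accounted for most of that difference, at 322 and 305 CPM against 426, 423 and 466 CPM, while Lum had 0 reads. In RNA from a whole culture, fewer cells of a kind and less RNA per cell cannot be told apart.

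Arid1a itself fell 2.38-fold. It stood at 292 and 399.9 CPM with the control siRNA and at 151, 157 and 127 CPM with the Arid1a siRNAs, a log2 change of -1.25 ± 0.13 (SE; 2 and 3 libraries; adjusted p = 2.36e-05, edgeR). Here and below, SE is the size of the log2 change divided by the square root of its edgeR F statistic. The fit behind it used all 11 libraries. The groups did not overlap, and the control libraries differed from each other by more than the 3 lowered ones did. Reads of Arid1a therefore remained in every knockdown library.

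Other members of the SWI/SNF complexes moved less than Arid1a. The paralogue Arid1b was at 124, 137, 118, 124 and 101 CPM and did not pass the test (log2 change -0.19 ± 0.10, adjusted p = 0.127, edgeR). Neither ATPase passed it: Smarca4 stood at 328, 381, 359.6, 381 and 369 CPM (adjusted p = 0.463), and Smarca2 at 130.5, 151, 131, 141 and 126 CPM (adjusted p = 0.572). The control and knockdown libraries overlapped in both ATPase genes. The PBAF subunit Arid2 did not pass either (adjusted p = 0.925), nor did Pbrm1 (adjusted p = 0.320), which passed without control replicate 2 (adjusted p = 0.0385). Of the 28 subunits tested, 9 fell, Arid1a among them, 3 rose and 16 did not pass. Across all genes tested, 18.8% rose and 20.1% fell.

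Other than Arid1a, the subunits whose calls held under every alternative setting tried were Dpf2, Bcl7a, Bcl7b, Bcl11a and Smarcd3. Dpf2, a histone-reading subunit of BAF, fell 1.57-fold, from 96.5 and 103 CPM to 64.7, 61.6 and 65.2 CPM (adjusted p = 4.1e-06). Bcl7a fell 1.43-fold, from 86.8 and 91.9 CPM to 61.1, 61.6 and 64.0 CPM (adjusted p = 2.5e-05). Bcl7b and Bcl11a fell 1.24-fold and 1.55-fold. Smarcd3, which encodes the BAF60C variant, rose 1.56-fold, from 13.9 and 16.0 CPM to 19.96, 23.3 and 25.9 CPM (adjusted p = 0.00178). Control and knockdown libraries were apart in each of these genes. The other calls were smaller or at low levels: Ss18 (log2 change -0.22), Actl6a (-0.22), Smarcc1 (-0.20) and Smarcd1 (-0.20) were called lower, and Bcl7c (0.38) and Actl6b (0.51) higher. Each of these 6 calls was lost in at least 1 alternative setting. The 11 remaining subunits Smarcc2, Smarcd2, Smarce1, Smarcb1, Brd7, Brd9, Phf10, Dpf1, Dpf3, Ss18l1 and Gltscr1 did not pass. With upper-quartile scaling Smarcc2 (adjusted p = 0.0132) and Ss18l1 (adjusted p = 0.0485) were called higher, as they were without control replicate 2. The count of falling subunits dropped to 5 with upper-quartile scaling, and to 5 when only these 5 libraries were fitted.

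With the Arid1a siRNAs a large share of the transcriptome differed from the control by small amounts. In all 5190 of 13343 genes were called (38.9%), 2505 higher (18.8%) and 2685 lower (20.1%), and the median fold size of the called genes was 1.37. Counts for the lists below are to be read beside these shares. The groups did not overlap in 5125 of the called genes. Over all 13343 genes they did not overlap in 7305 (54.7%), called or not. The largest rises and falls named below were picked among genes with groups apart, so their lack of overlap adds no support. In other called genes named below, lack of overlap adds little, since nearly every called gene had it. Changes over 2-fold were fewer and leaned towards rises: 629 genes (4.71%), of which 377 rose (2.83%) and 252 fell (1.89%). Of these, 43 rose and 18 fell more than 4-fold. The lean towards rises was confined to genes with a mean log2 CPM under 6, with 91 rises and 61 falls between 3 and 6. From 6 to 9 it reversed, with 13 rises and 35 falls over 2-fold. The near-even split of the smaller changes rests on the scaling. Upper-quartile scaling called 3129 genes higher and 2025 lower, which is 60.7% higher, against 2505 and 2685 with the TMM factors used here.

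Among called genes, the size of a change went with the level of the gene. Genes with few reads are called only when the change is large, so this relation cannot be told apart from what the test could detect. The share of genes called has the same limit. Of the 206 genes with a mean log2 CPM of 9 or over, 48.5% were called, 22 higher and 78 lower, and 1 of them changed over 2-fold. Of the 2569 genes between 0 and 3, 30% were called, and changes over 2-fold were made by 188 that rose and 122 that fell. Of the 632 genes under 0, 87 were called higher and 33 lower, of which 85 and 33 changed over 2-fold. Abundant genes that changed therefore mostly did so by less than 2-fold and more often downwards.

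**Figure D1:**
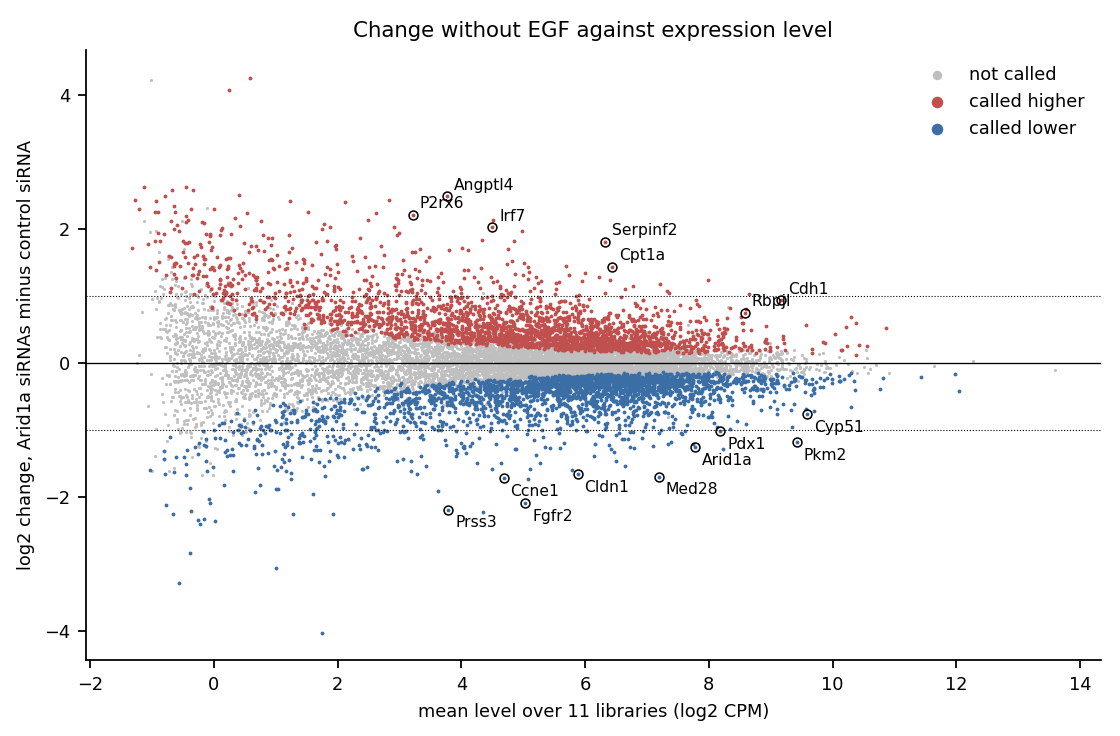
Log2 change by the Arid1a siRNAs without EGF (vertical axis) against the mean level over 11 libraries in log2 CPM (horizontal axis), 1 point per gene for the 13343 genes tested. Red points were called higher (2505), blue points lower (2685) and grey points were not called, dotted lines mark 2-fold, and circles mark named genes from Angptl4 at the top to Prss3 and Fgfr2 at the bottom.

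The largest rise among well-expressed genes was in Angptl4, which encodes a secreted inhibitor of lipoprotein lipase that is induced by fatty acid sensing receptors. It went from 6.02 and 4.15 CPM to 33.3, 27.8 and 26.1 CPM, a 5.59-fold rise (log2 change 2.48 ± 0.19, adjusted p = 3.22e-07). P2rx6, a subunit of ATP-gated ion channels, rose 4.61-fold, from 4.25 and 3.22 CPM to 17.4, 16.6 and 18.6 CPM. Both genes had every knockdown library at more than 3 times either control library. Cel, the bile-salt-dependent lipase of pancreatic juice, rose 4.40-fold, from 10.9 and 6.23 CPM to 40.9, 37.9 and 36.9 CPM (adjusted p = 8.49e-06). Creb3l3, a membrane-bound transcription factor of fasting lipid metabolism, rose 3.91-fold, from 16.6 and 10.1 CPM to 55.5, 51.0 and 53.3 CPM (adjusted p = 8.48e-07). Its control libraries differed from each other, yet both lay below 17 CPM, and the 3 knockdown libraries lay close together above 50 CPM.

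Serpinf2, which encodes the plasmin inhibitor alpha-2-antiplasmin, rose 3.50-fold, from 16.5 and 14.6 CPM to 58.6, 49.7 and 56.9 CPM (adjusted p = 2.53e-08). Tnfsf10, the death ligand TRAIL, rose 3.51-fold, from 11.3 and 14.97 CPM to 45.7, 49.7 and 41.2 CPM (adjusted p = 2.33e-07). Npy, which encodes neuropeptide Y, rose 3.27-fold, from 5.01 and 3.94 CPM to 14.0, 12.8 and 18.01 CPM. These 3 genes had no overlap between the groups, which the rule for naming the largest rises required. Spon2, a secreted matrix protein, rose 3.23-fold, Ramp1, a partner of the calcitonin receptor-like receptor, 3.14-fold, and Col20a1, a collagen, 2.89-fold. Susd2, a sushi domain membrane protein, rose 3.15-fold and Tmem176a, another membrane protein, 2.80-fold. Among genes for intracellular proteins, Syne1, which links the nuclear envelope to the cytoskeleton, rose 3.26-fold, Stac, an adaptor of calcium channels, 3.21-fold, the E3 ligase gene Rnf112 3.20-fold and Ehd2, a coat protein of caveolae, 2.98-fold. Adjusted p-values (edgeR) of these 9 genes ran from 3.18e-08 for Spon2 to 7.83e-05 for Syne1. Samd5 met the same rule with a 3.54-fold rise from 0.708 and 1.29 CPM to 2.89, 4.18 and 2.87 CPM (adjusted p = 0.0352), but this call was lost in 6 alternative settings, limma-voom among them (adjusted p = 0.124).

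Fgfr2, a receptor for fibroblast growth factors, had the smallest adjusted p of all 13343 genes. It stood at 89.3 and 89.8 CPM in the controls and at 21.1, 21.7 and 20.3 CPM after the Arid1a siRNAs, a 4.25-fold fall (log2 change -2.09 ± 0.08, adjusted p = 1.12e-09). Both groups were nearly constant within themselves. Kctd14, a BTB domain gene, fell 4.66-fold, from 32.4 and 56.5 CPM to 6.81, 10.5 and 10.7 CPM (adjusted p = 7.12e-05). Ccne1, which encodes cyclin E1, fell 3.28-fold, from 36.3 and 40.9 CPM to 10.6, 11.9 and 12.6 CPM (adjusted p = 3.21e-08). Fam151a, a membrane protein gene, fell 3.76-fold, from 34.4 and 29.1 CPM to 9.79, 7.43 and 8.44 CPM. None of these genes overlapped between the groups, which the rule for naming the largest falls required.

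A group of moderately expressed genes with unrelated functions fell about 3-fold with little spread. Med28, a Mediator subunit, was at 255 and 213 CPM and then at 75.2, 65.2 and 76.7 CPM, a 3.24-fold fall (adjusted p = 3.21e-08). Atg5, an autophagy gene needed to conjugate LC3, fell 3.04-fold, from 90.9 and 82.8 CPM to 26.5, 27.4 and 31.9 CPM (adjusted p = 2.53e-08). Ftl1, the ferritin light chain, fell 2.90-fold, from 163 and 155 CPM to 53.2, 48.2 and 63.1 CPM (adjusted p = 3.21e-08). Every knockdown library of these 3 genes lay far below both controls, and groups apart were required for naming them. Sirt2, a deacetylase gene, fell 2.82-fold, Tmeff1, a membrane protein gene, 2.99-fold, Parvb, an adaptor of integrin-linked kinase, 2.99-fold, and the linker histone gene Hist1h1c 2.91-fold. Ferritin light chain has several near-identical copies in the mouse genome, so the level of Ftl1 is uncertain. Nbl1, which encodes a secreted antagonist of bone morphogenetic proteins, fell 3.17-fold, from 19.6 and 17.7 CPM to 5.88, 5.90 and 5.92 CPM (adjusted p = 2.81e-07). Pnpla3, a lipid droplet hydrolase gene, fell 2.76-fold, the scavenging chemokine receptor gene Cxcr7 2.83-fold, Rasef 2.81-fold, the potassium channel gene Kcnh1 3.07-fold and the neuronal intermediate filament gene Prph 2.70-fold. Their adjusted p-values (edgeR) ran from 2.17e-07 for Rasef to 1.39e-04 for Prph.

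Antiviral effectors induced by interferon had the largest share of rises among the lists examined. In the textbook pathway, sensors of foreign nucleic acid such as RIG-I (Ddx58) and MDA5 (Ifih1) induce interferons, and interferon receptors act through JAK1 and TYK2 on a complex that holds STAT2 and IRF9. This complex binds the interferon-stimulated response element in the promoters of antiviral genes. Of 45 antiviral effectors tested, 31 rose (68.9%, against 18.8% of all genes), 13 did not pass and Herc6, at 27.5, 26.6, 20.4, 21.7 and 19.1 CPM, was called lower (adjusted p = 0.00846), a call lost without control replicate 1 (adjusted p = 0.057). The median log2 change of the 45 was 0.92, against -0.01 over all genes tested. The number that rose was 29 to 34 over the alternative settings. Of 62 effectors listed, 17 were not tested, for want of reads or because the tables do not hold the symbol.

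The promoters of 6 of the effectors that rose are shown because they carry the element close to their start sites. Each run is the 150 bases before the RefSeq start site on the gene's own strand, 5′ to 3′, from build GRCm38.p6. Capitals mark matches to a pair of GAAA words separated by any 2 bases, searched on both strands, where matches may overlap and a match on the opposite strand reads as a pair of TTTC words. A match is held by 521 of the 32851 RefSeq windows of this length (1.59%).
Ifit1, chr19:34640739-34640888, plus strand: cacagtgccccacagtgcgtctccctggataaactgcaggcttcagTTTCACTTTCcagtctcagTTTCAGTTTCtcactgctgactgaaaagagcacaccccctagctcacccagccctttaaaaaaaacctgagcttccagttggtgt
Isg15, chr4:156200819-156200968, minus strand: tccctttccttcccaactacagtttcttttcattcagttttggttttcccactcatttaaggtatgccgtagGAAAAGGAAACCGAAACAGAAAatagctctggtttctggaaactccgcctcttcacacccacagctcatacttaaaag
Gbp7, chr3:142530186-142530335, plus strand: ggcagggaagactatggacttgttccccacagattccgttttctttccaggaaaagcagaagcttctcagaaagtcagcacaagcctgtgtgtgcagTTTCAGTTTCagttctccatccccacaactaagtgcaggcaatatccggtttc
Bst2, chr8:71537473-71537622, minus strand: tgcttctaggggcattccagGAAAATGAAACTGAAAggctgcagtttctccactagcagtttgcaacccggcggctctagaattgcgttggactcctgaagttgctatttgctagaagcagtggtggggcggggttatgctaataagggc
Igtp, chr11:58199406-58199555, plus strand: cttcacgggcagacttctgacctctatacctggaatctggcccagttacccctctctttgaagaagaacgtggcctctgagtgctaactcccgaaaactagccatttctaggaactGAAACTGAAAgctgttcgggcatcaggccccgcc
Irgm2, chr11:58214827-58214976, plus strand: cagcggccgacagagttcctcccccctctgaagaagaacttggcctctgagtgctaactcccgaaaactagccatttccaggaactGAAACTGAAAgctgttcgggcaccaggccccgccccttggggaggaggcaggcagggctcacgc

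The windows of Ifit1 and Bst2 hold 2 matches each, that of Isg15 holds 3 overlapping ones, and those of Gbp7, Igtp and Irgm2 hold 1 each. The matches start 34 (Igtp) to 130 (Bst2) bases before the start site. The neighbouring GTPase genes Igtp and Irgm2 share an unbroken run of 38 bases upstream of theirs, so these 2 promoters are not independent examples. A match describes letters only, and binding was not measured. These 6 were chosen because they hold a match, so the matches support nothing by themselves. Promoters of 300 bases were found for 35 of the 45 effectors tested, too few for a share over the list to be read. As plain counts, 18 of these 35 genes held a match in any of their promoters, and 13 of the 23 among them that rose. Counted in the same way, 3.99% of the 27025 genes with RefSeq promoters did, and 3.35% of the 10529 tested.

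Most of these 6 genes more than doubled their RNA. Ifit1, which binds viral RNA lacking a proper cap, rose 3.83-fold, from 3.19 and 4.58 CPM to 11.9, 14.5 and 17.3 CPM (log2 change 1.94 ± 0.20, adjusted p = 4.24e-06). Isg15, the ubiquitin-like interferon modifier, rose 2.38-fold, from 5.87 and 4.80 CPM to 9.79, 13.5 and 15.1 CPM (adjusted p = 1.16e-04). Bst2, tetherin, which holds budding virus at the membrane, rose 1.68-fold, from 71.1 and 61.2 CPM to 105, 104 and 126 CPM (adjusted p = 3.85e-05). In all 3 genes, each knockdown library exceeded both controls. Igtp and Irgm2, GTPases of the vacuole defence against intracellular parasites, rose 2.48-fold and 2.31-fold, and Gbp7, a guanylate-binding protein gene, 1.80-fold.

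Further effectors followed the same pattern. Mx2, a dynamin-like antiviral GTPase, rose 4.08-fold, from 2.98 and 4.15 CPM to 11.5, 14.4 and 17.0 CPM (adjusted p = 1.74e-06), and Mx1 rose 3.08-fold. Xaf1, a pro-apoptotic interferon target, rose 3.76-fold, from 2.98 and 3.94 CPM to 9.51, 14.4 and 14.3 CPM. Isg20, an exonuclease gene, rose 2.62-fold, from 6.67 and 7.38 CPM to 16.7, 16.7 and 21.8 CPM. Of the enzymes that attach and remove Isg15, 3 rose with it: the activating enzyme gene Uba7 by 2.87-fold (6.02 and 6.38 CPM to 17.5, 19.0 and 16.5 CPM), the conjugating enzyme gene Ube2l6 by 1.67-fold and the protease gene Usp18 by 2.62-fold. Herc6, a ligase gene for Isg15, was called lower, as given above. Oasl2, of the oligoadenylate synthetase family, rose 3.05-fold, Gbp3 3.02-fold, the poly-ADP-ribose polymerase gene Parp14 2.42-fold, and the secreted glycoprotein gene Lgals3bp 1.91-fold, from 147 and 146 CPM to 269, 274 and 298 CPM. The Oas1, Ifit, Gbp and Irgm families hold close copies, and reads could have been split among them. Not every effector rose: Ifit2 was at 6.98, 7.81, 8.58, 9.09 and 7.48 CPM (adjusted p = 0.315), and Rsad2, viperin, at 7.13, 8.09, 9.23, 9.40 and 8.26 CPM (adjusted p = 0.158).

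The factors that carry the interferon signal rose as well. Of 18 receptors, kinases, transcription factors and feedback genes tested, 12 rose, none fell and 6 did not pass, with a median log2 change of 0.40. Irf7, the factor that amplifies type I interferon, rose 4.06-fold, from 10.2 and 11.5 CPM to 40.0, 43.3 and 48.5 CPM (log2 change 2.02 ± 0.12, adjusted p = 3.21e-08). Irf9 rose 2.32-fold, from 39.3 and 43.5 CPM to 84.9, 94.7 and 108 CPM (adjusted p = 6.36e-07). All knockdown libraries of both factors lay above both controls. Stat2 rose 1.57-fold and Irf1 1.54-fold. Upstream of them, Irf3 stood at 100.4, 88.4, 92.0, 90.1 and 101 CPM (adjusted p = 0.98) and Jak1 at 184, 211, 190.3, 191 and 162 CPM (adjusted p = 0.244), and neither passed the test.

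Of 14 nucleic acid sensors and their adaptors, 7 rose, 6 did not pass and the adaptor Mavs was called lower, at 37.8, 43.3, 35.9, 34.2 and 32.7 CPM (adjusted p = 0.0444), a call lost with upper-quartile scaling (adjusted p = 0.132). Ifih1 rose 2.36-fold, from 6.07 and 7.52 CPM to 15.5, 15.8 and 16.4 CPM (adjusted p = 3.36e-06). Ddx58 rose 2.11-fold, from 17.7 and 21.5 CPM to 38.1, 43.2 and 42.3 CPM (adjusted p = 1.74e-05). Adar, which edits double-stranded RNA, rose 1.52-fold, from 64.7 and 85.9 CPM to 104, 126 and 112 CPM (adjusted p = 7.8e-04). The count of rising sensors was 4 without control replicate 1. Of the interferon genes listed, Ifnb1, Ifna4 and Il28b had 0 reads in all 5 libraries, which allows up to 0.152 to 0.28 CPM at 3 counts per library, for counting error only. Other interferon genes were not examined. Of 20 NF-kB factors and inflammatory targets tested, 3 rose (15%, against 18.8% of all genes) and none fell, a median log2 change of 0.06. These were Rela, the p65 subunit of NF-kB (1.31-fold), Sod2, a mitochondrial superoxide dismutase (1.19-fold), and the growth factor gene Csf1 (1.44-fold).

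In MHC class I presentation, genes of peptide supply rose, while the classical heavy chains did not pass the test. Of 23 genes tested, 14 rose, 8 did not pass and Pdia3, a folding enzyme of the loading complex, fell 1.25-fold, with a median log2 change of 0.52 over the list. Tap1 and Tap2, the peptide transporter, rose 1.74-fold and 1.91-fold, Tap2 from 42.4 and 40.0 CPM to 76.7, 74.0 and 85.8 CPM (adjusted p = 1.19e-06). Tapbp, tapasin, rose 1.65-fold, from 131 and 117 CPM to 205, 199.9 and 208 CPM (adjusted p = 2.08e-06). The immunoproteasome subunit genes Psmb8, Psmb9 and Psmb10 rose 1.79-fold, 1.79-fold and 1.75-fold, and the proteasome activator genes Psme1 and Psme2 1.51-fold and 1.58-fold. Nlrc5, the transactivator of these genes, rose 3.21-fold at a low level, from 0.607 and 0.931 CPM to 2.15, 2.46 and 2.61 CPM (adjusted p = 1.79e-04). The classical heavy chain gene H2-D1 stood at 254, 206, 250.2, 220.2 and 245 CPM (adjusted p = 0.733), with overlapping groups. H2-K1 (581, 489, 625, 572 and 622 CPM, adjusted p = 0.143) and B2m (128, 102, 128, 116 and 126 CPM, adjusted p = 0.422) did not pass either, and without control replicate 1 both did, at adjusted p of 0.0345 and 0.0349. The non-classical H2-T23 rose 1.59-fold, from 29.4 and 27.2 CPM to 42.6, 44.0 and 48.7 CPM (adjusted p = 1.91e-05). H2 genes are close copies of each other, so their levels are uncertain.

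**Figure D2:**
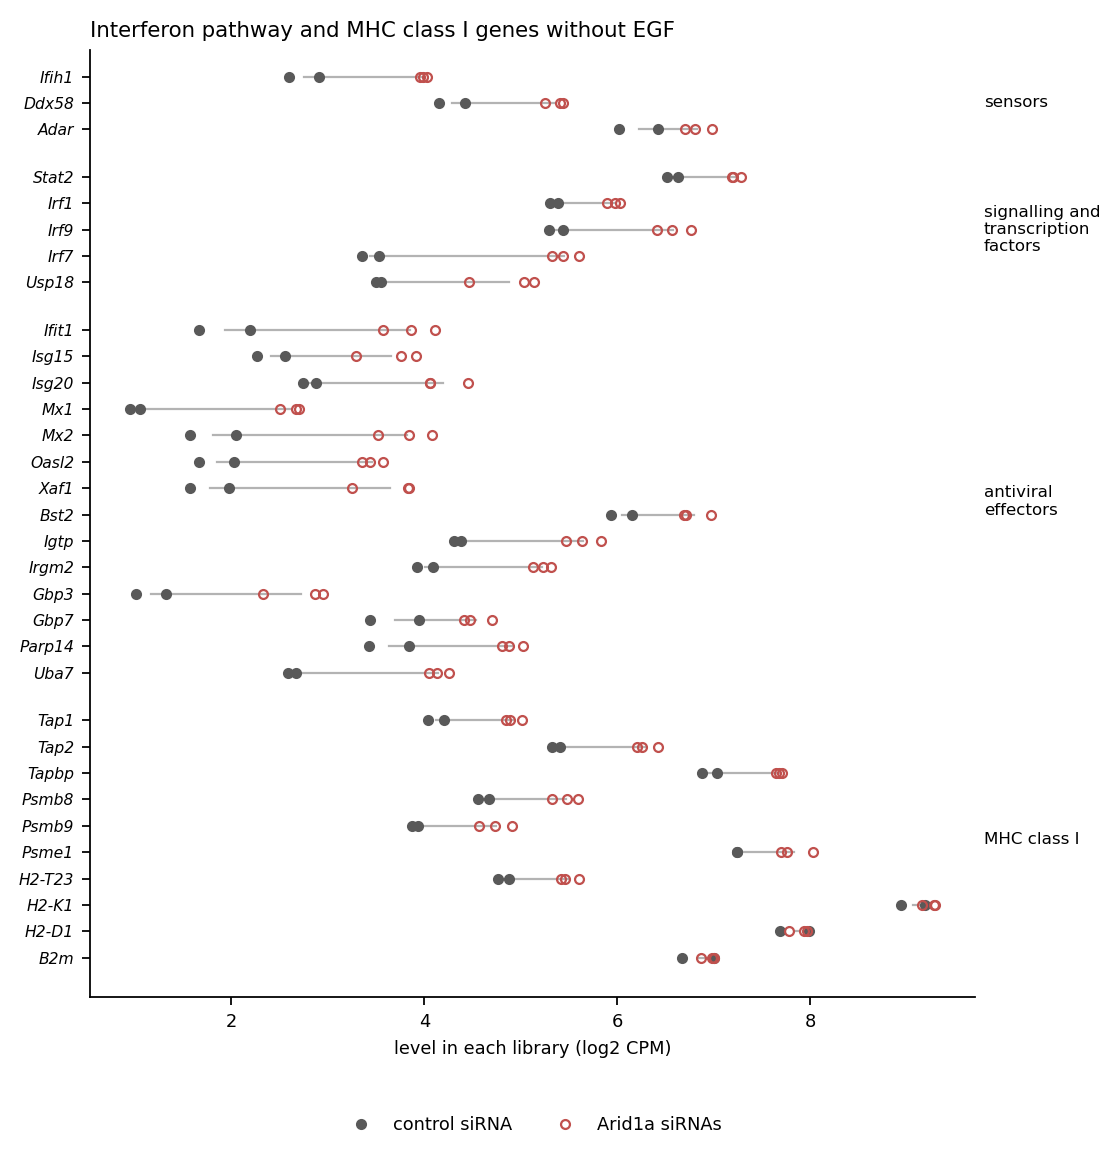
Level of 32 interferon pathway and MHC class I genes in each library without EGF, in log2 CPM on the horizontal axis, grouped by role. Filled points are the 2 control libraries, open points the 3 Arid1a siRNA libraries, and grey lines join the group means. The groups are apart for every gene drawn except H2-K1, H2-D1 and B2m, while over all genes tested they are apart in 54.7%. Ifit2, Rsad2, Irf3 and Jak1, which did not pass, and Herc6 and Mavs, called lower, are not drawn.

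Most of the G1/S regulators examined fell. Of 31 cyclins, kinases, inhibitors and E2F factors of this transition, 22 fell (71.0%, against 20.1% of all genes), 2 rose and 7 did not pass, with a median log2 change of -0.33. Beside Ccne1, described above, Cdk2 fell 1.23-fold, from 219.8 and 210.2 CPM to 173, 175 and 175 CPM (adjusted p = 4.75e-04), and Cdk4 fell 1.21-fold. Brakes on the transition fell together with its drivers. Cdkn1b, the inhibitor p27, fell 1.97-fold, from 246 and 247 CPM to 127, 125 and 124 CPM (log2 change -0.97 ± 0.05, adjusted p = 2.11e-08). Cdkn2c, p18, fell 1.42-fold, from 148 and 141 CPM to 96.7, 99.5 and 108 CPM, Cdkn1c, p57, 1.43-fold, and the Cdkn2a locus 1.31-fold, from 157 and 143 CPM to 108, 113 and 125 CPM. No library of either group crossed into the other in these inhibitors, which held for 5125 of all 5190 called genes.

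The E2F family fell at 7 of 8 members. The activator E2f2 fell 1.71-fold, from 82.6 and 92.0 CPM to 50.2, 51.8 and 50.7 CPM (adjusted p = 9.67e-07). The atypical repressor E2f8 fell 1.91-fold, from 71.3 and 85.4 CPM to 38.6, 44.4 and 39.5 CPM (adjusted p = 3.27e-06). E2f6 fell 1.78-fold and E2f3, E2f4, E2f5 and E2f7 1.26-fold to 1.41-fold, while E2f1, at 106, 93.5, 94.0, 94.0 and 101 CPM, did not pass (adjusted p = 0.576). Their partner Tfdp1 fell 1.58-fold, from 86.9 and 86.1 CPM to 53.8, 56.6 and 53.2 CPM. Skp2, the ligase subunit that marks p27 for degradation, fell 1.38-fold, from 184 and 196 CPM to 137, 141 and 134 CPM (adjusted p = 1.91e-05). Myc fell 1.21-fold and Mycn, at a far lower CPM, rose 1.91-fold from 2.63 and 3.37 CPM to 4.76, 6.08 and 6.00 CPM (adjusted p = 0.00104).

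Of 47 replication genes, 20 fell, 6 rose and 21 did not pass, a median log2 change of -0.10. The count of falls dropped to 12 with upper-quartile scaling, with only the 5 libraries fitted and without Arid1a siRNA replicate 1, and to 13 without control replicate 1. Rrm2, of ribonucleotide reductase, fell 1.52-fold, from 321 and 313 CPM to 198, 209.7 and 217 CPM (adjusted p = 1.3e-06). Thymidine kinase Tk1 fell 1.72-fold, from 55.4 and 63.9 CPM to 34.6, 32.9 and 36.4 CPM, and Tyms 1.31-fold. Pcna, the polymerase clamp, fell 1.34-fold, from 184 and 175 CPM to 127, 135 and 138 CPM. Of 40 G2/M genes, 12 rose, 2 fell and 26 did not pass, with a median log2 change of 0.07. Kif20a, a kinesin of cytokinesis, rose 1.46-fold, from 107 and 103 CPM to 151, 159 and 148 CPM (adjusted p = 1.03e-05), and Cdc20 rose 1.29-fold, whereas Ccnf fell 1.48-fold and Aurkb 1.37-fold.

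Transcription factors of the pancreas mostly fell. Of 21 tested, 12 fell (57.1%), 3 rose and 6 did not pass, with a median log2 change of -0.36. Ptf1a, the lead factor of acinar cells, fell 1.38-fold, from 215 and 194 CPM to 141, 144 and 159.7 CPM (adjusted p = 1.53e-04). Its acinar partner Rbpjl went the other way and rose 1.67-fold, from 287 and 298 CPM to 455, 492 and 521 CPM (log2 change 0.74 ± 0.06, adjusted p = 6.27e-07). Both genes were apart in all 5 libraries. Nr5a2 and Bhlha15, other acinar regulators, were called lower by 1.29-fold and 1.36-fold, but both calls were lost without control replicate 2, at adjusted p of 0.222 and 0.436.

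Pdx1 fell 2.03-fold, from 396 and 438 CPM to 198, 209.8 and 209 CPM (log2 change -1.02 ± 0.06, adjusted p = 3.47e-08). Gata6 fell 1.75-fold, from 147 and 161 CPM to 90.8, 84.7 and 88.3 CPM (adjusted p = 1.09e-06), and its relative Gata4 1.28-fold. Prox1 fell 2.19-fold, from 105 and 154 CPM to 59.0, 69.4 and 46.8 CPM (adjusted p = 0.00212). Every knockdown library was below both controls in these genes. Mnx1 fell 1.71-fold, Onecut1 1.80-fold, the low-level pioneer factor Foxa1 1.88-fold and the nuclear receptor Esrra 1.59-fold. Within the Foxa family, Foxa3 rose 1.45-fold, from 14.0 and 16.0 CPM to 20.3, 21.4 and 23.1 CPM, and Foxa2 stayed at 211, 215, 186, 209.8 and 208 CPM (adjusted p = 0.321). Hnf4a (log2 change 0.29) was called higher and Tcf3 (-0.17) lower, and both calls were lost in at least 1 alternative setting, while Tcf12, Zfp36l1, Nr0b2 and Xbp1 did not pass.

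Digestive enzymes and other acinar products moved in both directions. Of 29 acinar products tested, 9 rose (31%, against 18.8% of all genes), 8 fell (27.6%, against 20.1%) and 12 did not pass. Their median log2 change was 0.05. Cela1, an elastase, rose 1.44-fold, from 1718 and 1623 CPM to 2207, 2323 and 2688 CPM (adjusted p = 1.17e-04), its relatives Cela2a 1.54-fold and Cela3b 2.53-fold, from 8.44 and 7.74 CPM to 20.7, 17.3 and 24.2 CPM. Beside Cel, given above, Clps, colipase, rose 2.01-fold and Pnliprp1 1.31-fold, from 303 and 271 CPM to 348, 359.9 and 423 CPM (adjusted p = 0.00257). Amy1 rose 2.07-fold and the secretory protein gene Reg1 1.51-fold. The trypsinogen gene Prss3 fell 4.57-fold, from 29.2 and 22.3 CPM to 6.99, 4.79 and 5.48 CPM (adjusted p = 1.3e-06), and Prss1 4.80-fold, from 5.71 and 2.79 CPM to 0.933, 0.921 and 0.870 CPM. Prss2, at 296, 238, 285, 268 and 327 CPM, did not pass (adjusted p = 0.275), and it was called higher without control replicate 1 (adjusted p = 0.0243). Reg3g was the other product called higher, and Cpa1, Try5, Spink3, Reg3a, Sycn and Cckar were the others called lower. Each of these 7 calls was lost in at least 1 alternative setting. Trypsinogen genes form a tandem family of near-identical copies, and reads could have been split or dropped among them. The count of falling products was 5 without control replicate 1, and 5 without Arid1a siRNA replicate 1 or 2.

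**Figure D3:**
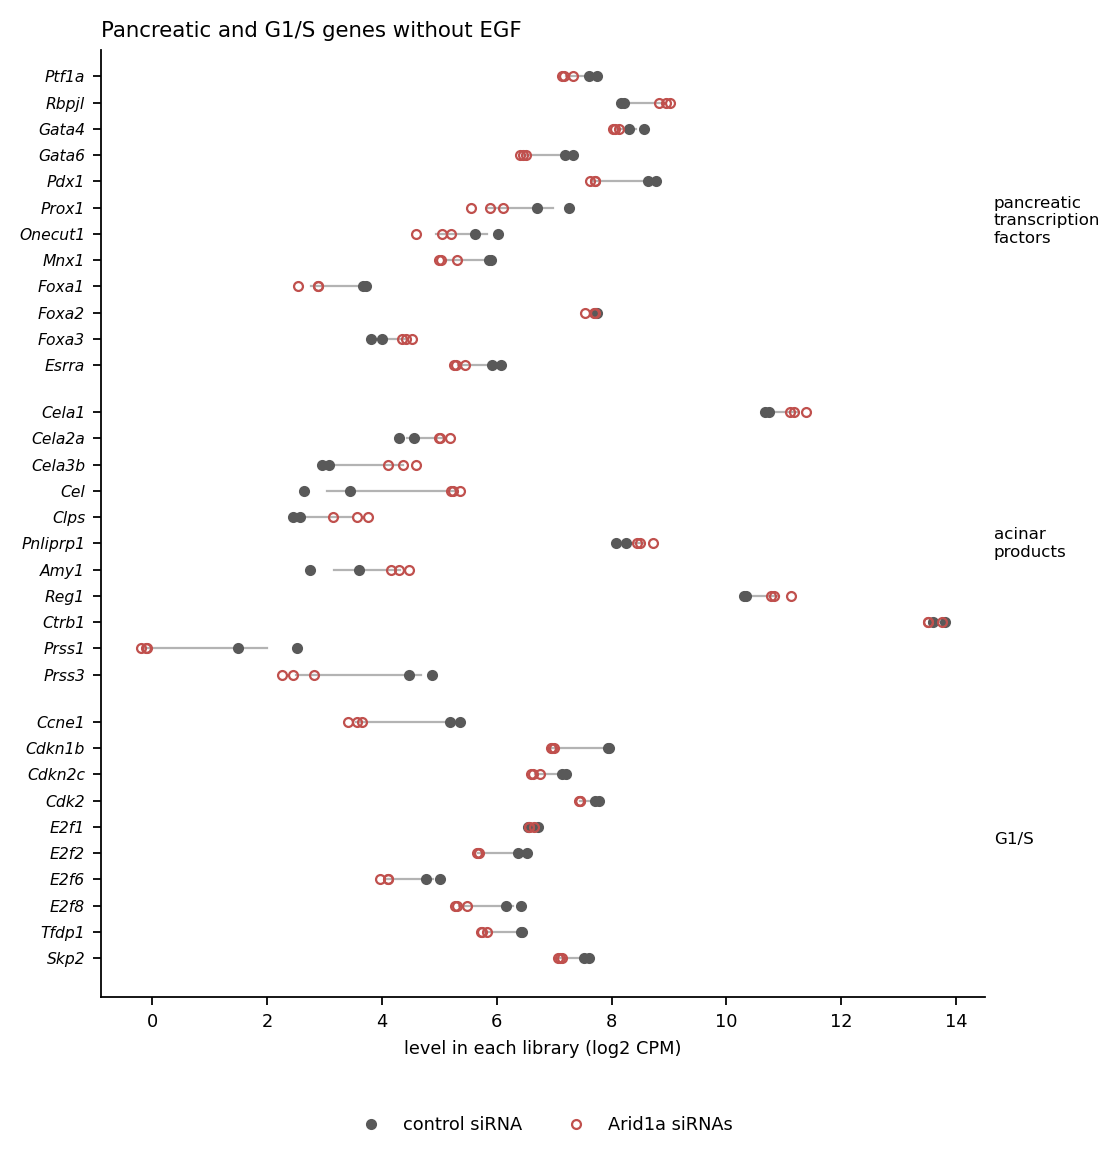
Level of 33 genes in each library without EGF, in log2 CPM on the horizontal axis: pancreatic transcription factors, acinar products and G1/S regulators. Filled points are the 2 control libraries, open points the 3 Arid1a siRNA libraries, and grey lines join the group means. Rbpjl, the elastases and Cel lie higher after the siRNAs, while Pdx1, Gata6, Cdkn1b, the trypsinogens Prss1 and Prss3 and most E2F genes lie lower.

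Duct-like markers showed no common direction, with 23.7% called higher and 28.9% lower, against 18.8% and 20.1% of all genes. Of 38 ductal, metaplasia and progenitor genes tested, 9 rose, 11 fell and 18 did not pass, with a median log2 change of -0.12, and the falls counted 7 without control replicate 2. Sox9, the duct and progenitor factor, was at 38.8, 59.3, 38.6, 41.5 and 44.0 CPM with overlapping groups (log2 change -0.23 ± 0.14, adjusted p = 0.192), and it was called lower without control replicate 1 (log2 change -0.51, adjusted p = 0.00145). Krt19, the classical duct keratin, was at a low level and did not pass, at 1.67, 2.15, 1.40, 1.11 and 1.65 CPM (adjusted p = 0.161). Prom1, CD133, rose 1.97-fold, from 58.5 and 79.4 CPM to 119, 141 and 145 CPM (adjusted p = 1.5e-04), and Spp1, osteopontin, 2.40-fold at a low level. The Notch ligand gene Dll1 fell 1.66-fold, from 151 and 158 CPM to 92.0, 96.3 and 90.6 CPM (adjusted p = 4.51e-07).

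Genes of fat breakdown were called higher more often than lower, and genes of sterol synthesis lower more often than higher. Of 36 PPAR targets and lipid catabolism genes, 18 rose (50%), 2 fell and 16 did not pass, with a median log2 change of 0.38. Cpt1a, which admits fatty acids to the mitochondrion and is the control point of their oxidation, rose 2.70-fold, from 49.5 and 48.1 CPM to 136, 137 and 123 CPM (log2 change 1.43 ± 0.07, adjusted p = 2.1e-08). Acadvl, the very long chain acyl-CoA dehydrogenase, rose 1.76-fold, from 256 and 250.2 CPM to 428, 431 and 476 CPM (adjusted p = 3.3e-07). Acadm and Acadl, its relatives for shorter chains, rose 1.42-fold and 1.46-fold, Cpt2 1.38-fold, Slc25a20, the carnitine carrier, 1.63-fold and Plin5, of oxidative lipid droplets, 2.35-fold. The members that fell were the receptor Rxra, 1.36-fold, and the mitochondrial carrier Ucp2, 1.71-fold, from 302 and 329 CPM to 173, 181 and 200.3 CPM (adjusted p = 1.62e-06).

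Of 28 genes of cholesterol synthesis and uptake, 14 fell (50%), 1 rose and 13 did not pass, with a median log2 change of -0.19. Without control replicate 2 the falls numbered 9. Cyp51, the lanosterol demethylase, fell 1.70-fold, from 805 and 872 CPM to 471, 489 and 519 CPM (log2 change -0.77 ± 0.06, adjusted p = 3.72e-07). Sc4mol, the next demethylase, fell 1.67-fold, from 304 and 307 CPM to 179, 175 and 197 CPM. Mvk and Mvd, early enzymes of the mevalonate pathway, fell 1.86-fold and 1.64-fold. Npc2, which hands cholesterol out of the lysosome, fell 2.08-fold, from 142 and 129.9 CPM to 66.1, 61.2 and 69.9 CPM (adjusted p = 1.81e-07), and its partner Npc1 rose 1.29-fold. No library overlapped between groups in these genes. In fatty acid synthesis, 8 of 26 genes fell (30.8%) and 5 rose (19.2%), against 20.1% and 18.8% of all genes. The desaturase Scd1 fell 1.65-fold, from 873 and 1068 CPM to 573, 603 and 586 CPM (adjusted p = 1.89e-05). Among 38 glycolysis and hypoxia genes 16 fell (42.1%) and 8 rose (21.1%), against 20.1% and 18.8% of all genes. The falls were far fewer without control replicate 2, so their excess over all genes leans on that library. Pkm2, pyruvate kinase of muscle type, fell 2.28-fold, from 925 and 1076 CPM to 393, 431 and 493 CPM (adjusted p = 2.33e-07), and Car9, a carbonic anhydrase, 2.39-fold.

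Growth factor receptors of several families changed singly. Of 34 FGF receptor and other receptor tyrosine kinase genes, 9 rose (26.5%, against 18.8% of all genes) and 9 fell (26.5%, against 20.1%). Beside Fgfr2, Fgfrl1, a decoy receptor, fell 1.80-fold and Fgfr3 1.31-fold, from 163 and 163 CPM to 121, 128 and 121 CPM (adjusted p = 2.65e-04). Their ligand Fgf1 rose 2.91-fold at a low level, from 1.21 and 2.29 CPM to 4.48, 5.16 and 5.05 CPM. Met, the receptor for hepatocyte growth factor, rose 2.07-fold, from 42.0 and 46.8 CPM to 92.5, 99.1 and 82.8 CPM (adjusted p = 2.69e-06). Ptk7, a pseudokinase of planar polarity, rose 1.597-fold. Fgfr2 and Met thus lay on opposite sides with no overlap between groups in either. The counts of this list fell to 4 rises without control replicate 1 and to 5 falls without control replicate 2 or Arid1a siRNA replicate 2.

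Of the receptor for EGF and its pathway, 10 of 32 genes rose (31.2%) and 9 fell (28.1%) without EGF, against 18.8% and 20.1% of all genes. The median log2 change was 0.13. Egfr was at 55.4, 78.6, 55.3, 58.3 and 42.6 CPM, with overlapping groups (log2 change -0.35 ± 0.18, adjusted p = 0.145), and it passed without control replicate 1 (log2 change -0.58, adjusted p = 0.0466). The ligand gene Tgfa fell 2.17-fold, from 10.5 and 13.1 CPM to 5.50, 5.65 and 4.96 CPM (adjusted p = 9.56e-05), and the ligand gene Hbegf rose 2.03-fold, from 10.0 and 8.24 CPM to 19.6, 17.2 and 19.6 CPM (adjusted p = 6.79e-06). Mapk3, the kinase ERK1 at the end of the cascade, fell 1.86-fold, from 218 and 207 CPM to 113, 109.7 and 121 CPM (adjusted p = 8.89e-08). The feedback genes Spry1 and Errfi1 rose 1.37-fold and 1.32-fold. The rises of this list numbered 6 without control replicate 1 and without Arid1a siRNA replicate 1 or 2, and 6 with the replicate number as a block.

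TGF-beta and BMP genes were called lower more often than higher. Of 35 tested, 15 fell (42.9%), 2 rose and 18 did not pass, with a median log2 change of -0.24. The receptor gene Bmpr1a fell 1.90-fold, from 140.0 and 143 CPM to 76.4, 75.6 and 71.2 CPM (adjusted p = 1.35e-07). The signal carriers Smad5, of the BMP arm, and Smad4, common to both arms, fell 1.37-fold and 1.29-fold. The target gene Id3 fell 1.43-fold, from 278 and 239 CPM to 165, 173 and 204 CPM (adjusted p = 6.15e-04). Antagonists fell too, with Nbl1 described above, and Nog, noggin, from 1.11 and 1.65 CPM to 0.186, 0.184 and 0.435 CPM, a few reads per library. In the YAP and TEAD list, 9 of 25 genes fell and 2 rose. Tead1 and Tead2, the DNA-binding partners, fell 1.64-fold and 1.69-fold, Tead2 from 212 and 215 CPM to 129, 121 and 128 CPM (adjusted p = 5.64e-07), and Wwtr1, TAZ, 1.96-fold. Yap1 was listed at 0 reads in all 5 libraries.

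Adhesion genes changed one by one. Of 30 tight junction and adhesion genes, 7 rose (23.3%, against 18.8% of all genes), 8 fell (26.7%, against 20.1%) and 15 did not pass. Cldn1, a sealing claudin, fell 3.16-fold, from 83.0 and 86.0 CPM to 26.9, 27.2 and 25.9 CPM (log2 change -1.66 ± 0.07, adjusted p = 7.39e-09). Cldn3 rose 1.79-fold, from 27.1 and 28.4 CPM to 44.5, 50.4 and 53.9 CPM (adjusted p = 1.67e-05). Cdh1, E-cadherin, rose 1.91-fold, from 418 and 400.3 CPM to 807, 794 and 739 CPM (adjusted p = 7.09e-08). Desmosome genes went down instead: Dsg2 fell 2.77-fold, from 166 and 163 CPM to 69.8, 60.7 and 47.8 CPM (adjusted p = 2.28e-07), and Dsp 1.71-fold. Cdh1 and Dsg2 thus changed in opposite directions, each with its groups apart.

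Genes of cell death and clearance also moved on both sides. Of 25 BCL2 and TRAIL family genes, 5 rose (20%, against 18.8% of all genes) and 8 fell (32%, against 20.1%). Beside the TRAIL gene Tnfsf10, the survival gene Bcl2l1 rose 1.55-fold and the survival gene Bcl2 fell 1.49-fold, from 40.6 and 49.2 CPM to 30.8, 32.1 and 26.9 CPM (adjusted p = 4.31e-04). Casp8, the initiator caspase downstream of death receptors, fell 1.71-fold, from 28.7 and 26.4 CPM to 17.0, 15.4 and 16.1 CPM (adjusted p = 1.21e-05). The death gene Bcl2l11, BIM, fell 1.56-fold, from 56.5 and 53.1 CPM to 35.6, 36.4 and 33.5 CPM. Of 37 lysosome and autophagy genes, 13 rose (35.1%) and 4 fell (10.8%), with a median log2 change of 0.13. Tfe3, a regulator of lysosome genes, rose 1.35-fold, Atg2a 1.49-fold and Atg9b 1.54-fold, while Atg5 was the largest fall of the list.

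Among other chromatin regulators, 11 of 34 fell (32.4%) and 7 rose (20.6%), against 20.1% and 18.8% of all genes. The falls numbered 7 with upper-quartile scaling and with only the 5 libraries fitted. Suz12, a core subunit of the Polycomb complex PRC2, fell 1.73-fold, from 225 and 219.9 CPM to 134, 133 and 118 CPM (adjusted p = 6.07e-07). Its catalytic subunit Ezh2 fell 1.22-fold and the alternative Ezh1 rose 1.40-fold, from 38.3 and 37.9 CPM to 55.9, 51.8 and 52.1 CPM (adjusted p = 3.33e-04). Cbx2, of PRC1, fell 1.65-fold, and Cbx7 rose 1.38-fold. Paralogue pairs of both Polycomb complexes therefore changed in opposite directions.

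The remaining lists are given by their counts, to be read against 18.8% of all genes rising and 20.1% falling. The respiratory chain had 3 rises and 5 falls among 35 genes, with a median log2 change of -0.01. Endoplasmic reticulum genes had 7 and 8 among 34, p53 targets 6 and 7 among 29, and amino acid response genes 9 and 4 among 33. The mesenchymal and matrix list had 9 rises and 4 falls among 34 genes, the Wnt list 3 and 9 among 24, Mediator 5 and 11 among 31, and ribosome biogenesis 2 and 10 among 32. Of 13 siRNA pathway genes 2 were called higher, Eif2c1 (log2 change 0.39) and Eif2c4 (0.47), and 3 lower, Tnrc6c (-0.48), Drosha (-0.19) and Dicer1. Tnrc6a, Tnrc6b, Tarbp2, Eif2c2, Eif2c3, Dgcr8, Prkra and Xpo5 did not pass, although Tnrc6b did in 3 alternative settings. Dicer1 was called lower, at 86.2, 98.9, 83.6, 77.1 and 68.0 CPM (adjusted p = 0.0255); each of these 5 calls was lost in at least 1 alternative setting, and that of Dicer1 in 6 alternative settings, upper-quartile scaling among them (adjusted p = 0.0718).

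Single members of these lists moved further. Eif4ebp1, a repressor of cap-dependent translation, fell 2.59-fold, from 38.1 and 40.9 CPM to 15.01, 13.2 and 17.7 CPM (adjusted p = 4.27e-07), while Psat1, of serine synthesis, rose 1.53-fold, from 130.1 and 139 CPM to 201, 197 and 219 CPM (adjusted p = 3.44e-06). Tcf7l2, a nuclear partner of beta-catenin, fell 1.74-fold, from 40.9 and 37.8 CPM to 22.01, 24.0 and 21.7 CPM (adjusted p = 9.3e-06). Both directions were seen without overlap between the groups. Sparc, a matrix protein gene, rose 1.59-fold, from 55.9 and 54.2 CPM to 84.5, 85.6 and 93.3 CPM (adjusted p = 2.9e-06), and Has2, which makes hyaluronan, 2.42-fold. The fibroblast marker sums given above were also higher after the siRNAs, mostly through Vim. Of the 14 fibroblast markers tested, 3 rose, 2 fell and 9 did not pass. The part of these sums in the rises of Sparc and Has2 was not tested. Among p53 targets Trp53inp1 fell 1.56-fold and the repair gene Xpc rose 1.43-fold. Of Mediator subunits other than Med28, Med22 fell 1.43-fold, from 116 and 112 CPM to 80.6, 79.6 and 78.8 CPM (adjusted p = 8.47e-06).

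**Figure D4:**
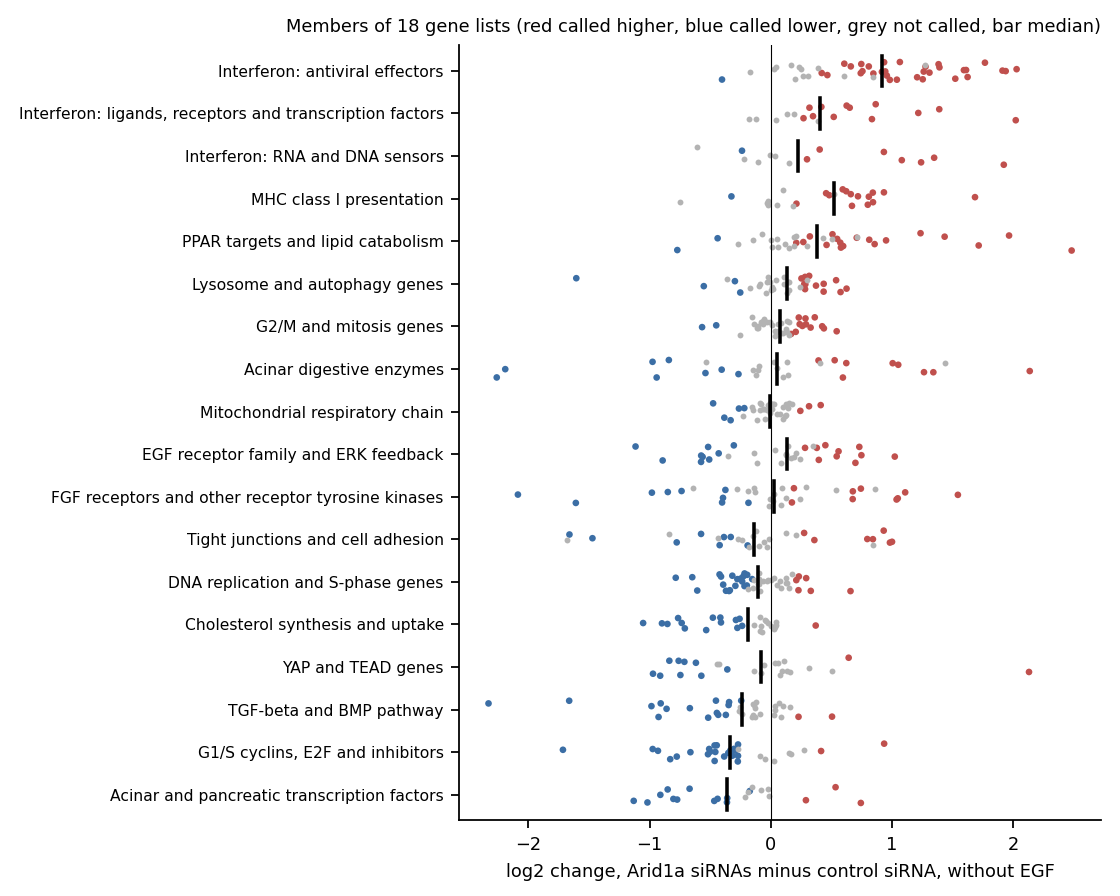
Log2 change by the Arid1a siRNAs without EGF (horizontal axis) for the tested members of 18 gene lists, 1 point per gene and 1 row per list. Red points were called higher, blue points lower, grey points were not called, and black bars are medians, from 0.92 for antiviral effectors to -0.36 for pancreatic transcription factors. The vertical scatter within a row has no meaning.

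The 6 EGF-treated libraries gave a second measurement of the same siRNAs on separate libraries, although all 11 libraries shared 1 estimate of the spread. With EGF, 6261 genes were called (46.9%), 3164 higher (23.7%) and 3097 lower (23.2%). Of the 2505 genes that rose without EGF, 2079 also rose with it (83.0%, or 65.7% of those that rose with EGF), and of the 2685 that fell, 2120 also fell (79.0%, or 68.5%). In 18 genes each, a called rise met a called fall or the reverse. Interferon effectors rose in both conditions, 31 and then 36 of 45, and pancreatic transcription factors fell in both, 12 and then 11 of 21. Irf7 rose 3.84-fold with EGF, Cel 5.66-fold, and Pdx1 fell 1.89-fold.

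The difference between the changes was itself called in 126 genes (0.944%), 75 in the positive (0.562%) and 51 in the negative direction (0.382%). This count is sensitive to single libraries, from 55 without control-with-EGF replicate 1 to 153 without Arid1a siRNA replicate 3. Of these, several belonged to the EGF receptor list: 9 of its 32 genes had a called difference. Spry1, an inhibitor of receptor tyrosine kinase signalling, rose 1.37-fold without EGF and fell 1.85-fold with it (difference in log2 change -1.34 ± 0.14, adjusted p = 6.97e-04). Hbegf rose 2.03-fold without EGF and was not called with it (log2 change -0.04, adjusted p of the difference = 0.00187). Cxcl12, a chemokine, rose 1.40-fold without EGF and fell 1.33-fold with it (adjusted p of the difference = 1.94e-04), and Pcdh8, a protocadherin, did the opposite, falling 1.31-fold and rising 2.001-fold (adjusted p of the difference = 1.94e-04). Spry2, a relative of Spry1, was not called without EGF (log2 change 0.14, though called with upper-quartile scaling) and fell 1.46-fold with it (adjusted p of the difference = 0.00128). Wipi1, an autophagy gene, was called lower by 1.47-fold without EGF, a call lost without control replicate 2 (adjusted p = 0.0853), and fell 4.52-fold with it (adjusted p of the difference = 0.00128). Fgfr2 fell in both conditions, 4.25-fold without and 2.94-fold with EGF, and that difference (adjusted p = 0.0455) lost its call in 16 of 18 alternative settings.

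**Figure D5:**
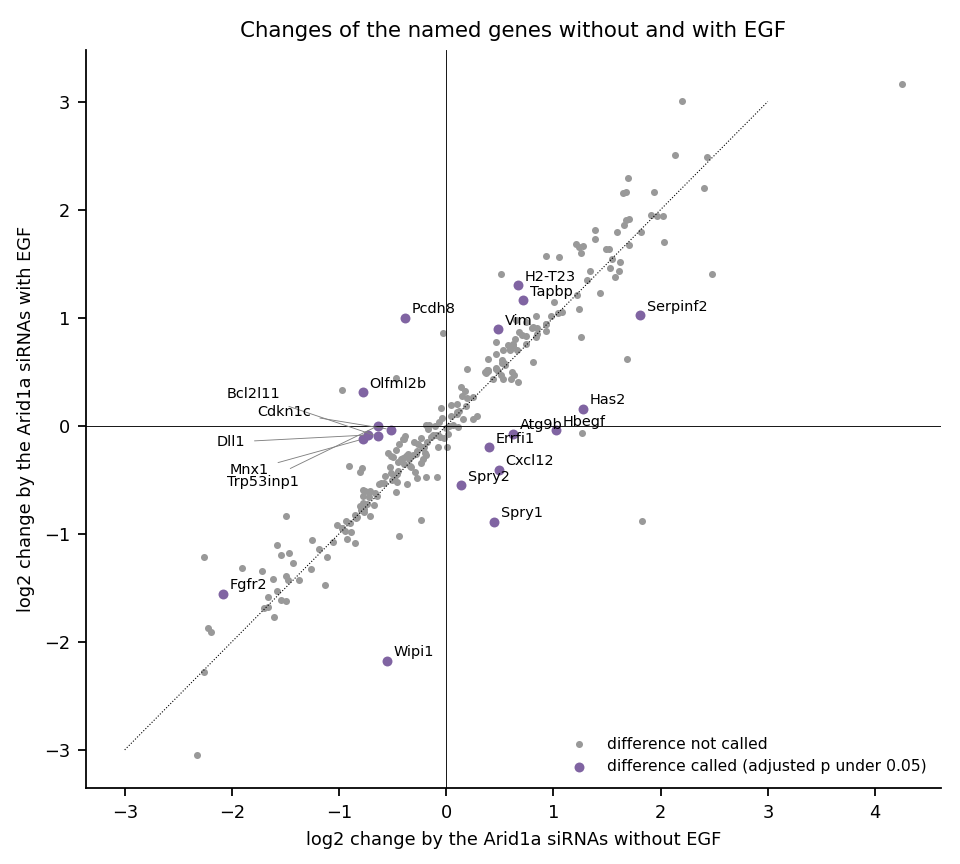
Log2 change by the Arid1a siRNAs without EGF (horizontal axis) and with EGF (vertical axis) for the genes named in the text, 1 point per gene, with a dotted line of equal change. Purple points are genes whose 2 changes differed (adjusted p under 0.05), and grey points are the others. Most named genes lie in the quadrants of equal sign, and the purple points in the quadrants of opposite sign are Pcdh8, Olfml2b, Cxcl12, Spry1, Spry2, Errfi1, Hbegf and Atg9b.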

How the data were processed

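RNA was sequenced from 266-6 cells with a kit that does not mark strand, so antisense reads cannot be told apart. The authors deposited raw read counts per gene symbol for each library. TopHat2 2.1.1, HTSeq 0.9.1 and build mm9 are named in the submitters' processing notes. A deposited table with 12 further value columns was not used, because it holds more control columns than there are control libraries.

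Genes were kept by edgeR's expression filter (minimum count 10, total 15), which left 13343 genes and 99.96% of reads. The counts were scaled with TMM factors and fitted by edgeR 4.0.16 (quasi-likelihood, robust, 4 group means over all 11 libraries, R 4.3.3), with 7 residual degrees of freedom and a biological coefficient of variation of 7%. Alternatives used other scaling, no filter, a replicate block, only the 5 libraries, DESeq2 1.42.0, limma-voom 3.58.1 and each library left out. On simulated data for the comparison without EGF (13184 genes), 65.7%, 95.5% and 97% of genes changed 1.5-, 2- and 4-fold were recovered. There, 67, 67 and 66 genes were changed, far fewer than the 5190 called in the data, and 12 unchanged genes were called. Changes as small as the median of the called genes, 1.37-fold, were not simulated.

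The genes named were the 20 largest rises and 20 largest falls whose groups did not overlap and whose log2 CPM averaged 3 or more, up to 6 members of each list with the smallest p, the SWI/SNF, pancreatic factor and siRNA pathway genes, the 6 smallest p of the difference, and other list members. The 36 lists, with 1170 genes of which 1006 were tested, and the comparison were chosen with earlier results of these data known. Promoters came from RefSeq, build GRCm38.p6, and no other coordinates were used.

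Results for some genes are not reported here.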

Additional observations from a re-analysis of the deposited data

Results flagged for a closer look

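The change made by the Arid1a siRNAs differed between the cultures without and with EGF for 20 of the genes named in the text, each by a test of the difference itself (edgeR quasi-likelihood, adjusted over 13343 genes). The differences below are the log2 change with EGF minus that without. They were -1.62 for Wipi1, -1.34 for Spry1, -1.12 for Has2, -1.06 for Hbegf, -0.90 for Cxcl12, -0.79 for Serpinf2, -0.70 for Atg9b, -0.69 for Spry2 and -0.59 for Errfi1. They were 1.39 for Pcdh8, 1.09 for Olfml2b, 0.65 for Mnx1, 0.64 for Dll1, 0.64 for Trp53inp1, 0.63 for H2-T23, 0.54 for Bcl2l11, 0.53 for Fgfr2, 0.48 for Cdkn1c, 0.44 for Tapbp and 0.41 for Vim.

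The differences of Cxcl12, Pcdh8, Spry1, Spry2, Wipi1, Olfml2b, Dll1, Hbegf and Serpinf2 kept their calls in all 18 alternative settings. Those of Fgfr2, Cdkn1c and Vim lost theirs in 16, 13 and 12 of the 18, those of Mnx1 and Tapbp in 9 each, that of Bcl2l11 in 8, that of Errfi1 in 2, and those of Atg9b, H2-T23, Has2 and Trp53inp1 in 1 each. None changed sign.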

How the results depend on the processing

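The count of genes called without EGF was 3904 to 5279 over the alternatives, and that of genes called over 2-fold 538 to 665. Of the 263 genes named beside Arid1a, none that was called in the main fit or in an alternative changed sign between them. Sign changes of genes called in neither were not counted. The split of calls depended on the scaling: upper-quartile factors gave 3129 higher and 2025 lower. The count of called differences between the changes with and without EGF was 126, fell to 56 with the replicate block, and was 55 to 153 when 1 library was left out. With DESeq2 it was 178. Leaving out a library can leave the control group with 1 sample, which is then assumed to vary like the other groups. The replicate number as a block gave 4408 calls without EGF. Deviations of same-numbered libraries correlated at -0.031 and 0.644, so the number was not taken to pair the samples. Control replicate 1 also went with Arid1a siRNA replicate 3, at 0.48. Deviations of the 2 control libraries mirror each other, so these values are not independent. Scatter shared across the groups was not modelled in the main fit. Passing only in 1 setting, Ctrb1 was called lower without Arid1a siRNA replicate 3 (log2 change -0.20) and Prss2 higher without control replicate 1 (0.31). With 2 control libraries, 1 of them can move a count of list members by over 1.5 times, as given beside those lists. Causes were not tested.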

Other observations

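Genes at very low levels were left out of the naming rule, and those named here were chosen after their values were seen. Pde1a, a phosphodiesterase of cyclic nucleotides, was at 0.202 and 0.143 CPM in the controls, at or below the level of a handful of reads, and at 3.26, 2.76 and 4.79 CPM after the Arid1a siRNAs. Akr1c14, an aldo-keto reductase gene, was at 1.87 and 1.65 CPM against 9.05, 9.28 and 9.92 CPM, and Slc24a4, a sodium and calcium exchanger gene, at 1.87 and 2.79 CPM against 11.8, 13.3 and 11.8 CPM. Lor, which encodes the skin envelope protein loricrin, was at 9.25 and 8.67 CPM against 1.96, 1.78 and 1.91 CPM. The groups did not overlap in these 4 genes.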
